A study of Mus musculus with 24 samples.

Results

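The genes described are 8 that are widely used to follow bile duct cells and the ductular reaction of injured liver. They were taken by symbol from the gene tables of a hepatocyte RNA-seq study and comprise 4 keratins (Krt7, Krt8, Krt18 and Krt19), the adhesion proteins Epcam and Cd24a, the transcription factor Sox9 and the secreted protein Spp1 (osteopontin). All 8 were found among 55421 genes in 24 libraries. Every animal was an aged male C57BL/6J mouse, and each library came from the hepatocytes of 1 mouse. ND+veh (n = 8) was kept on normal diet with vehicle. HFD+veh (n = 7) had the same vehicle diet from 4 months and was moved at 18 months, for 9 weeks, to a diet with 60% of its calories from fat. HFD+eRapa (n = 9) received encapsulated rapamycin, an inhibitor of the kinase mTORC1, at 42 ppm from 4 months, and the same high-fat diet for the same 9 weeks. Drug and vehicle therefore long preceded the high-fat diet, and there was no group with rapamycin on normal diet. The labels name the tissue as liver and the cell type as hepatocyte. Cells were collected after collagenase perfusion, slow spins and a density gradient, with no sorting on a marker.

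Keratins are the intermediate filaments of epithelial cells, and each filament needs a type II partner (Krt7 or Krt8) joined to a type I partner (Krt18 or Krt19). Hepatocytes make filaments of Krt8 with Krt18, whereas bile duct cells (cholangiocytes) add Krt7 and Krt19. Epcam, Cd24a, Sox9 and Spp1 are found in cholangiocytes and in ductular cells that expand in chronic injury, and Sox9 can also be switched on in stressed hepatocytes. Spp1 and Cd24a are not specific to ducts, because lipid-laden macrophages make Spp1 and several blood cells carry Cd24a.

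The libraries held 17.7 to 25.9 M counts, and the summed level of 9 hepatocyte markers ran from 55810 to 169700 CPM (counts per 1000000 counts, scaled by the TMM method). Duct-specific genes were scarce. Of 18 cholangiocyte markers other than the 8 genes, 8 were too low to be tested, among them the chloride channel Cftr with 34 counts and the secretin receptor Sctr with 10 counts over all 24 libraries. Markers of other cells differed widely between animals. The summed level of 12 Kupffer cell markers ran from 52.4 to 1569 CPM in ND+veh, from 197.6 to 5886 CPM in HFD+veh and from 19.4 to 1230 CPM in HFD+eRapa, and HFD+veh replicates 3 to 6 held the 4 highest sums. In ND+veh replicate 4 the hepatocyte sum was 60930 CPM, the lowest of its group. RNA of a whole cell suspension was sequenced, so more cells of a type and more RNA per cell cannot be told apart in any result below.

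Of the 8 genes, 6 passed the filter on low counts and were tested with edgeR. Krt7 and Krt19 did not pass and are described by their counts. Krt8, Krt18 and Sox9 were above the filter's limit of 0.475 CPM in all 24 libraries and Spp1 in 23 of them. Cd24a reached it in 13 libraries, of which 2 were ND+veh, and Epcam in only 7, of which 1 was ND+veh, so these 2 genes entered the test mainly through the high-fat groups. In HFD+veh compared with ND+veh, Spp1, Cd24a, Epcam and Sox9 rose (4 of 6), none fell, and Krt8 and Krt18 were not called. In HFD+eRapa compared with HFD+veh, Spp1 and Cd24a fell (2 of 6) and none rose. In HFD+eRapa compared with ND+veh, Spp1 was higher (1 of 6) and none was lower. Among all 13847 genes tested, 16.0% were called higher and 9.86% lower with high-fat diet, 10.9% higher and 21.1% lower with rapamycin, and 6.93% higher and 6.54% lower between HFD+eRapa and ND+veh. The same shares are the background for the gene lists below, which were not tested as sets. The median log2 fold change of the 6 tested genes was 1.76, -0.75 and 0.75 in the 3 comparisons, against 0.05, -0.04 and -0.03 for all genes. Setting the 6 beside all genes is a description and not a test, because they were chosen with earlier results of these data known. No tested gene separated any pair of groups completely. Groups that did not overlap were found for 2.44%, 2.59% and 3.37% of all genes. The first and second comparisons share the HFD+veh animals, and the last shares HFD+eRapa and ND+veh animals with them, so their values are not independent.

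**Figure D1:**
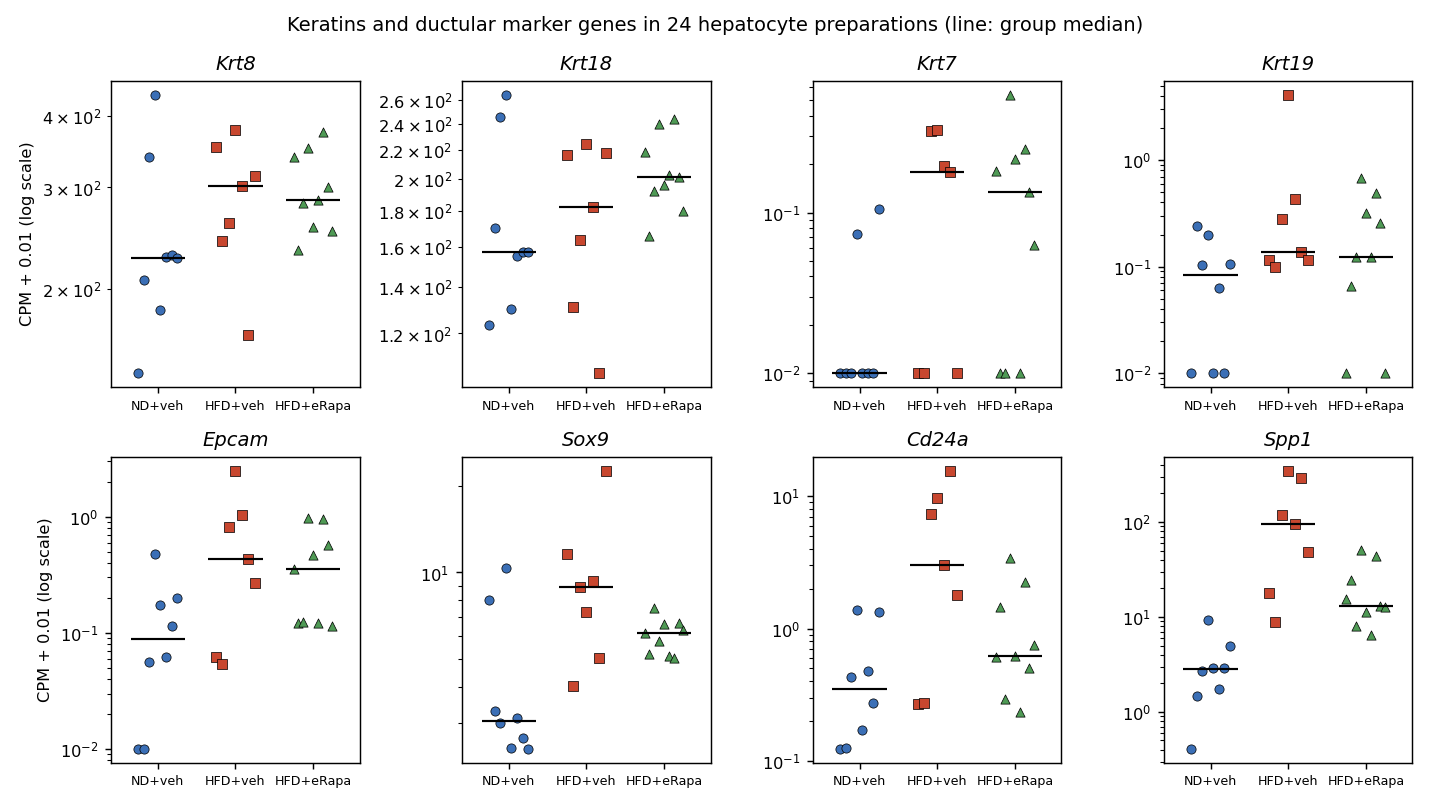
TMM-scaled CPM plus 0.01 on a log axis for each of the 8 genes, with 1 point per animal and a line at the group median. Krt8 and Krt18 lie between 105.2 and 434.8 CPM in every animal, Krt7 and Krt19 lie at or near 0 apart from 1 HFD+veh animal with 4.07 CPM of Krt19, and Spp1 reaches 348 CPM in HFD+veh.

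**Figure D2:**
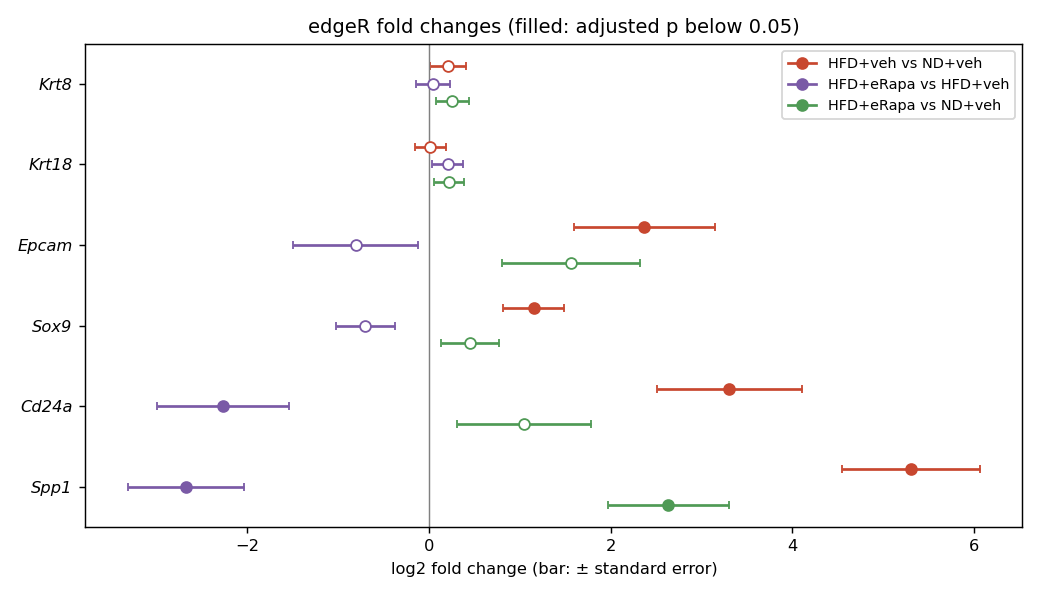
Log2 fold changes with standard errors for the 6 genes tested, 1 colour per comparison, with filled points where the adjusted p was below 0.05. The points of Krt8 and Krt18 stay between 0.02 and 0.26, whereas those of Spp1 reach 5.31 with high-fat diet and -2.67 with rapamycin.

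Krt8 and Krt18, the keratin pair of the hepatocyte, were, per length, the most abundant of the 8 genes in every group and were not called in any comparison. Krt8 is on chromosome 15 from 101996698 to 102004482 (GRCm38, minus strand) and Krt18 lies 23697 bases away from 102028180 to 102032027 on the plus strand. Krt8 ran from 142.4 CPM through a median of 226.5 to 434.8 CPM in ND+veh. In HFD+veh it ran from 166.0 through 302.1 to 377.3 CPM, and in HFD+eRapa from 233.6 through 285.4 to 375.3 CPM. The 3 groups overlapped along most of their ranges, and the highest value belonged to ND+veh replicate 4. Krt18 ran from 123.6 through 157.3 to 264.3 CPM in ND+veh, from 105.2 through 182.3 to 225.0 CPM in HFD+veh and from 165.5 through 201.5 to 243.7 CPM in HFD+eRapa. Per length, both genes stood close together. Krt8 averaged 134.6 ± 67.1 FPKM (fragments scaled to gene length and to library size, SD, n = 8) in ND+veh and Krt18 132.8 ± 51.6 FPKM (n = 8), ranks 647 and 651 of 55421 genes.

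Krt8 gave a log2 value of 0.21 for HFD+veh against ND+veh (SE 0.19, edgeR adjusted p = 0.435) and of 0.05 for HFD+eRapa against HFD+veh (SE 0.19, edgeR adjusted p = 0.874). For Krt18 the same comparisons gave 0.02 (SE 0.17, edgeR adjusted p = 0.955) and 0.21 (SE 0.17, edgeR adjusted p = 0.363). Between HFD+eRapa and ND+veh the values were 0.26 for Krt8 (edgeR adjusted p = 0.406) and 0.22 for Krt18 (edgeR adjusted p = 0.419). None of these differences passed the test. With the score of cholangiocyte markers as a covariate, both genes were called higher with rapamycin than with vehicle on high-fat diet (0.57 and 0.62, edgeR adjusted p = 0.0435 and 0.0208). Without ND+veh replicate 4 and HFD+veh replicates 4 and 6, Krt8 was above ND+veh in HFD+eRapa (0.42, edgeR adjusted p = 0.0424), as it was with the cholangiocyte covariate (0.50, edgeR adjusted p = 0.0487).

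The pair varied together from animal to animal. After group means were subtracted, log2 CPM of Krt8 and Krt18 correlated over 24 animals with r = 0.954 and rho = 0.921, both at the smallest p that 100000 permutations within groups can give (1e-05, adjusted p = 0.000138 for r and 0.00023 for rho over 69 relations). Within ND+veh, HFD+veh and HFD+eRapa, r was 0.962, 0.966 and 0.963, and r was 0.926 when the 2 animals farthest from the median of Krt8 were left out. Among all tested genes each was the other's closest in this measure. The next closest to Krt8 were Prune1 (r = 0.81) and Trib3 (r = 0.81), and to Krt18 were Pef1 (r = 0.80) and Pdlim1 (r = 0.79). Because these 2 genes moved together, the 250 bases upstream of their RefSeq starts (GRCm38.p6) were searched, on both strands, for 6 motifs. They were the TATA box (spelled TATAAA), the GC box (spelled GGGCGG), the box spelled CCAAT, the motif of the Notch partner RBPJ (spelled TGGGAA), the motif of TEAD factors (spelled GGAATG) and that of AP-1 (spelled TGANTCA). None of these motifs overlapped another in the sequences shown, and capitals mark the matches.
Krt8, chr15:102004343-102004592, minus strand: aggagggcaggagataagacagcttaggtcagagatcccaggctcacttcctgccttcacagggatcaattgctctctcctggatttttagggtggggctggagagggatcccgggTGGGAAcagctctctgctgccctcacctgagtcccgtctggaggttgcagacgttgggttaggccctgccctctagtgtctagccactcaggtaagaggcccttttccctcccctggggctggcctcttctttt
Krt18, chr15:102027966-102028215, plus strand: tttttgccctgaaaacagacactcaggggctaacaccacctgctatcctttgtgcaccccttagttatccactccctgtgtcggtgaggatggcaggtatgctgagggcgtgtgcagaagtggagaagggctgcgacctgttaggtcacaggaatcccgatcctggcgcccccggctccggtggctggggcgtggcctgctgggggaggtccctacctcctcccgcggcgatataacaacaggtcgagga
The Krt8 stretch held 1 RBPJ match, a motif present in 21.6% of 32851 promoters of the same length, and the Krt18 stretch held none of the 6 motifs. No letter match was therefore shared by the pair.

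The balance within the pair shifted with diet although neither gene was called. The log2 ratio of Krt8 to Krt18 FPKM averaged -0.03 ± 0.16 (SD, n = 8) in ND+veh, 0.21 ± 0.12 (n = 7) in HFD+veh and 0.02 ± 0.08 (n = 9) in HFD+eRapa. In HFD+veh the ratio was above 0 in all 7 animals, from 0.0049 through 0.22 to 0.39. It ran from -0.26 through -0.01 to 0.26 in ND+veh and from -0.12 through 0.01 to 0.14 in HFD+eRapa. HFD+veh exceeded ND+veh by 0.24 (two-sided exact permutation test, p = 0.00824, adjusted p = 0.0185 over 9 tests). With rapamycin it was lower, the means differing by -0.20 (exact permutation test, p = 0.00254, adjusted p = 0.0118). HFD+eRapa and ND+veh differed by 0.04 (exact permutation test, adjusted p = 0.51). The ratio of both type II to both type I keratins gave nearly the same differences, 0.24, -0.19 and 0.04, since Krt7 and Krt19 add little to either sum. Tested as a difference of medians, the first 2 shifts no longer passed (exact permutation test, adjusted p = 0.0839 for each). A long noncoding gene, Gm36026, overlaps the start of Krt8 on the opposite strand, and whether counting used strand is not stated. A copy of Krt8 counted separately, Krt8-ps, held 444 counts over all libraries.

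**Figure D3:**
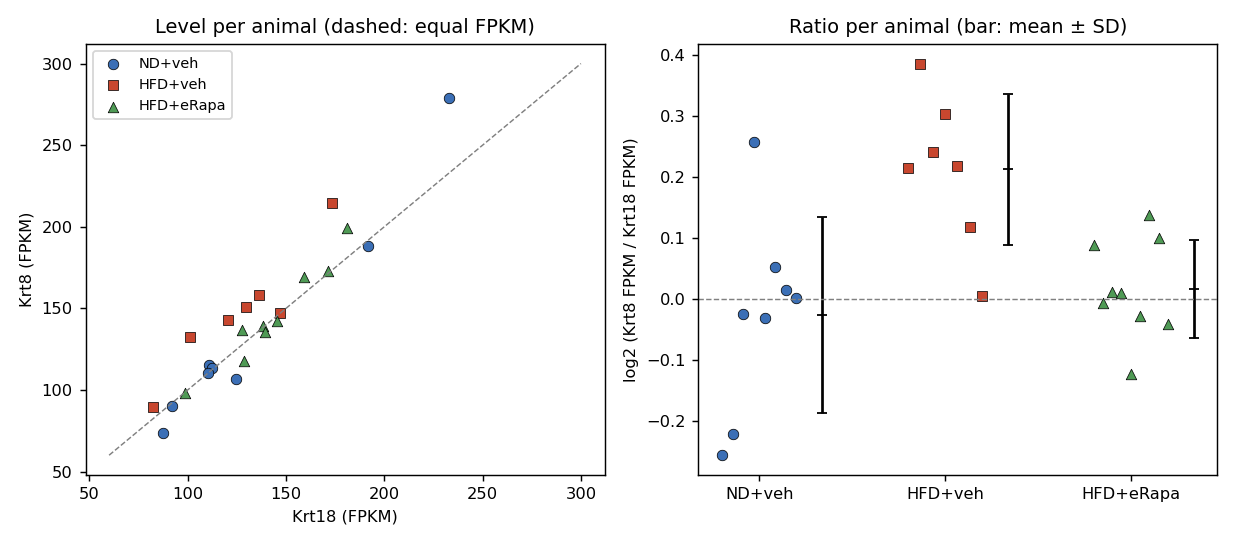
Krt8 against Krt18 in FPKM with 1 point per animal and a dashed line of equal level, beside the log2 ratio per animal with its group mean and SD. All 7 HFD+veh animals lie above the line, with a mean log2 ratio of 0.21 against -0.03 in ND+veh and 0.02 in HFD+eRapa.

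Krt7 and Krt19, the keratin pair of bile ducts, were barely detected. Krt7 (chromosome 15, 101411043 to 101430313, plus strand) held 4 counts over the 8 ND+veh libraries, 23 over the 7 HFD+veh libraries and 27 over the 9 HFD+eRapa libraries, and no library held more than 11. It was at 0 counts in 12 of 24 libraries. An antisense gene, Gm671, overlaps its start. Krt19 (chromosome 11, 100140810 to 100148665, minus strand) held 17, 127 and 39 counts over the same groups. Of the 127 counts in HFD+veh, 103 came from replicate 4, and the other 6 libraries held 2 to 9 each. In a fit with no filter on low counts, Krt7 gave a log2 value of 2.38 with high-fat diet (edgeR adjusted p = 0.112). Krt19 was called higher there (2.94, SE 0.91, edgeR adjusted p = 0.0407), as were 6.23% of 30483 genes in that fit. Without HFD+veh replicate 4 the value was 0.98 (edgeR adjusted p = 0.456), so the Krt19 call rested on 1 animal.

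Krt7 and Krt19 together made up a small share of the FPKM of the 4 keratins. The share was 0.0315% ± 0.0248 (SD, n = 8) in ND+veh, 0.21% ± 0.325 (n = 7) in HFD+veh and 0.107% ± 0.0855 (n = 9) in HFD+eRapa. Its highest value was 0.932% in HFD+veh replicate 4. Counts and FPKM of Krt7 did not rank the animals alike. HFD+eRapa replicate 8 held 2 counts and 0.305 FPKM, whereas replicate 4 held 11 counts and 0.191 FPKM. ND+veh replicate 1 held 0 counts and 0.058 FPKM. Tests of the share therefore rest on imprecise values. HFD+veh exceeded ND+veh by 0.178 percentage points (exact permutation test, p = 0.0137, adjusted p = 0.0246). HFD+eRapa exceeded ND+veh by 0.0754 points (exact permutation test, p = 0.0323, adjusted p = 0.0484), and HFD+eRapa differed from HFD+veh by -0.103 points (exact permutation test, adjusted p = 0.51). Without HFD+veh replicate 4 the first difference was 0.0577 points (exact permutation test, adjusted p = 0.0559), and without ND+veh replicate 1, 4, 5, 6, 7 or 8 in turn it also missed the threshold (exact permutation test, adjusted p from 0.0539 to 0.0757). The difference between HFD+eRapa and ND+veh missed it without the same ND+veh replicates and without HFD+eRapa replicate 4, 5, 6, 7 or 8 (exact permutation test, adjusted p from 0.0508 to 0.0804). A log2 ratio of Krt7 to Krt19 was not computed, because 1 or both were listed at 0 FPKM in 12 libraries.

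Of the 50 other keratin genes in the tables, 37 had 0 counts in all libraries and 2 could be tested. Krt23, a type I keratin, rose from 0.859 ± 1.26 CPM (SD, n = 8) in ND+veh to 3.82 ± 1.92 CPM (n = 7) in HFD+veh (log2 fold change 2.11, edgeR adjusted p = 0.0149) and was at 1.05 ± 0.807 CPM (n = 9) in HFD+eRapa, a fall from HFD+veh (log2 fold change -1.87, edgeR adjusted p = 0.0161). The other, Krt10, was not called. Among all genes, 16.0% rose and 9.86% fell with high-fat diet, and 10.9% rose and 21.1% fell with rapamycin. Genes for proteins that anchor or modify keratin filaments were called in both directions. Of 12 tested, 2 rose and 4 fell with high-fat diet, 1 rose and 3 fell with rapamycin, and 3 were lower and none higher when HFD+eRapa was set against ND+veh, with median log2 fold changes of -0.16, -0.03 and -0.29. The small heat shock protein Hspb1, a chaperone of filaments, fell from 98.1 ± 16.7 CPM (SD, n = 8) to 26.9 ± 9.94 CPM (n = 7) with no overlap between groups (log2 fold change -1.87, edgeR adjusted p = 6.18e-06). Tgm2, the transglutaminase that crosslinks keratins, rose with high-fat diet (0.78, edgeR adjusted p = 0.00317) and fell with rapamycin (-0.46, edgeR adjusted p = 0.0359). The plakin Ppl, which ties filaments to desmosomes, fell with rapamycin (-1.68, edgeR adjusted p = 0.00015).

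Epcam, a surface adhesion molecule of epithelial and progenitor cells, was detected at few counts. It is on chromosome 17 from 87635979 to 87651129 (plus strand). It ran from 0 through a median of 0.079 to 0.472 CPM in ND+veh, from 0.0441 through 0.422 to 2.49 CPM in HFD+veh, and from 0.105 through 0.343 to 0.962 CPM in HFD+eRapa. The highest animal, HFD+veh replicate 4, held 63 counts and was also the one with most Krt19. In 3 of 7 HFD+veh animals Epcam was above every ND+veh animal. With high-fat diet it was 5.18-fold higher (log2 fold change 2.37, SE 0.77, edgeR adjusted p = 0.0281). This call was lost without HFD+veh replicate 4 (1.59, edgeR adjusted p = 0.131) and without 3 other libraries in turn, namely ND+veh replicates 1 and 3 and HFD+veh replicate 3 (2.15 to 2.30, edgeR adjusted p from 0.0506 to 0.0548). Without ND+veh replicate 4, Epcam did not pass the filter and was not tested. The call held in 10 of 14 fits with 1 library left out and in 4 of 12 other alternatives. Epcam differed between HFD+eRapa and HFD+veh by -0.81 (edgeR adjusted p = 0.39) and between HFD+eRapa and ND+veh by 1.56 (edgeR adjusted p = 0.193). The last difference was called in 5 of 12 alternatives, namely with each of 3 marker covariates, the replicate block and 3 libraries excluded (1.89 to 2.33, edgeR adjusted p from 0.0272 to 0.0494). Of 5 tested genes that cleave Epcam or bind it, 1 rose and 2 fell with high-fat diet and 2 fell with rapamycin. Adam17, a protease that sheds its outer part, rose by 1.18 (edgeR adjusted p = 0.0104) and fell by 1.27 on the log2 scale with rapamycin (edgeR adjusted p = 0.00356). Spint2, an inhibitor of membrane proteases, fell with high-fat diet (-0.78, edgeR adjusted p = 0.0103). The tetraspanin Cd9 fell with rapamycin (-1.22, edgeR adjusted p = 0.00432).

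Sox9, the transcription factor that marks ducts and periportal hepatocytes, rose with high-fat diet. It lies on chromosome 11 from 112782224 to 112787760 (plus strand). It ran from 2.42 through 3.04 to 10.3 CPM in ND+veh, from 4.01 through 8.87 to 22.6 CPM in HFD+veh and from 5.01 through 6.13 to 7.53 CPM in HFD+eRapa. In ND+veh, replicates 1 and 4 stood at 8.003 and 10.3 CPM and the other 6 at 2.42 to 3.28 CPM, so the overlap with HFD+veh came from 2 animals. HFD+eRapa was the tightest group, with an SD of 0.843 CPM against 6.21 CPM in HFD+veh and 3.02 CPM in ND+veh. With high-fat diet Sox9 was 2.22-fold higher (log2 fold change 1.15, SE 0.34, edgeR adjusted p = 0.0175). Without HFD+veh replicate 7, the highest animal, the value was 0.80 (edgeR adjusted p = 0.0574). Sox9 differed between HFD+eRapa and HFD+veh by -0.70 (SE 0.33, edgeR adjusted p = 0.103) and between HFD+eRapa and ND+veh by 0.45 (SE 0.32, edgeR adjusted p = 0.402). In a fit of only ND+veh and HFD+veh it was 1.14 (edgeR adjusted p = 0.0609). Sox9 was called with high-fat diet in each fit that included a marker score as a covariate, at 1.11 with cholangiocyte markers, 1.26 with Kupffer markers and 1.34 with markers of lipid-associated macrophages. The genes closest to it across animals were Stx5a (r = 0.81), Ddc (r = 0.74) and Vps37c (r = 0.73).

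Notch signalling controls Sox9 in ducts: ligands of the Jag and Dll families bind Notch receptors, whose inner part joins Rbpj to switch on Hes and Hey genes. Of 12 genes of this pathway tested, 3 rose with high-fat diet and none fell, 1 rose and 8 fell with rapamycin, and 2 were lower in HFD+eRapa than in ND+veh. Medians were 0.31, -0.98 and -0.32. The target Hey1 rose from 0.379 ± 0.443 CPM (SD, n = 8) to 1.86 ± 1.59 CPM (n = 7) and was at 0.233 ± 0.11 CPM (n = 9) in HFD+eRapa (2.29 and -2.98, edgeR adjusted p = 0.0127 and 0.00172). Nrarp, a feedback inhibitor, rose by 2.03 (edgeR adjusted p = 0.00188) and fell by 1.34 on the log2 scale (edgeR adjusted p = 0.0108). The ligand Dll1 was lower in HFD+eRapa than in both other groups (-1.01 and -1.33, edgeR adjusted p = 0.00521 and 0.000695). Endothelial cells also use this pathway, and 9 of 9 endothelial markers fell with rapamycin; their part in these values was not tested. The YAP and TEAD pathway acts on Sox9 and ductular fate, and its genes were called in both directions. Of 13 genes tested, 2 rose and 3 fell with high-fat diet, 2 rose and 2 fell with rapamycin, and 1 was higher and 1 lower when HFD+eRapa was set against ND+veh. Among all genes, 16.0% rose and 9.86% fell with high-fat diet, and 10.9% rose and 21.1% fell with rapamycin. Between HFD+eRapa and ND+veh the shares were 6.93% higher and 6.54% lower. The coactivator Yap1 rose with rapamycin (0.56, edgeR adjusted p = 0.00313). Its paralog Wwtr1 was higher in both high-fat groups than in ND+veh (0.72 and 0.73, edgeR adjusted p = 0.00908 and 0.00664). Amotl2, a target and inhibitor of YAP, fell with high-fat diet (-0.70, edgeR adjusted p = 0.00827) and rose with rapamycin (0.62, edgeR adjusted p = 0.00903).

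Cd24a, a small glycoprotein anchored in the membrane by lipid, rose with high-fat diet and fell with rapamycin. It lies on chromosome 10 from 43578284 to 43584265 (plus strand). It ran from 0.114 through 0.342 to 1.39 CPM in ND+veh, from 0.261 through 3.01 to 15.6 CPM in HFD+veh and from 0.225 through 0.615 to 3.41 CPM in HFD+eRapa. HFD+veh replicates 3, 4, 5 and 6 held 65 to 370 counts, replicate 7 held 34, and replicates 1 and 2 held 5 and 6, within the ND+veh range. In 5 of 7 HFD+veh animals Cd24a was above every ND+veh animal. The log2 fold change was 3.31 with high-fat diet (SE 0.79, edgeR adjusted p = 0.00582) and -2.27 with rapamycin (SE 0.73, edgeR adjusted p = 0.0202). HFD+eRapa and ND+veh differed by 1.04 (SE 0.74, edgeR adjusted p = 0.405), a difference that was called with the Kupffer score (1.78, edgeR adjusted p = 0.0297) and the lipid-associated macrophage score (1.42, edgeR adjusted p = 0.0047) as covariates. The fall with rapamycin was lost without HFD+veh replicate 4 (-2.01, edgeR adjusted p = 0.0537) or replicate 6 (-1.66, edgeR adjusted p = 0.0959), and with limma voom both the rise (2.70, adjusted p = 0.066) and the fall (-1.65, adjusted p = 0.148) missed the threshold. Of 13 alternatives other than leaving out 1 library, 9 called the rise and 5 the fall.

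Spp1, an acidic matrix protein and cytokine, moved most. It lies on chromosome 5 from 104435118 to 104441050 (plus strand), where a short gene model, Gm42793, overlaps it on the same strand. Its sequence upstream of the first RefSeq start (GRCm38.p6) is shown because Spp1 changed most among the 8 genes, with capitals on the matches to the same 6 motifs.
Spp1, chr5:104434861-104435110, plus strand: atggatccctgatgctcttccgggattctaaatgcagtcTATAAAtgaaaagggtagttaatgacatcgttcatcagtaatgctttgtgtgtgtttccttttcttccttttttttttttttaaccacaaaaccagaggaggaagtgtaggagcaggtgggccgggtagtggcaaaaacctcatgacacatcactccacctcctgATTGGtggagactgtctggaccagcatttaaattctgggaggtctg
It held a letter match to TATAAA 211 bases before the start and, near the start, a match to CCAAT on the opposite strand. Matches to these motifs were found in 12.4% and 33.8% of promoters of this length. Of the 6 RefSeq stretches available for these genes, 2 belonged to Spp1 and 1 each to Krt7, Krt8, Krt18 and Epcam. Krt7 held 4 letter matches to the GC box and Epcam 1 (32.7% of promoters hold at least 1).

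Spp1 ran from 0.397 through 2.79 to 9.29 CPM in ND+veh, from 8.86 through 95.3 to 348 CPM in HFD+veh and from 6.42 through 13.2 to 51.2 CPM in HFD+eRapa. In 6 of 7 HFD+veh animals and 7 of 9 HFD+eRapa animals it was above every ND+veh animal. ND+veh replicate 4 was the highest of its group. With high-fat diet Spp1 was 39.7-fold higher (log2 fold change 5.31, SE 0.76, edgeR adjusted p = 7.89e-05). It fell by 2.67 on the log2 scale in HFD+eRapa compared with HFD+veh (SE 0.64, edgeR adjusted p = 0.00391) and stayed 6.21-fold above ND+veh (log2 fold change 2.64, SE 0.67, edgeR adjusted p = 0.00903). Per length, it averaged 2.86 ± 2.79 FPKM (SD, n = 8) in ND+veh, 110.3 ± 116.8 FPKM (n = 7) in HFD+veh and 15.7 ± 12.6 FPKM (n = 9) in HFD+eRapa, from rank 8676 of all genes to ranks 758 and 3380. The HFD+veh mean was carried by replicates 4 and 6, with 304.2 and 240.5 FPKM, both above their own Krt8. The other 5 animals held 7.46 to 99.4 FPKM, each below its own Krt8. The rise with high-fat diet was called in all 13 alternatives that tested it and with each of 15 libraries left out (3.11 to 5.71). The remaining difference between HFD+eRapa and ND+veh was called with each of 17 libraries left out (2.34 to 3.09) and in 11 of 13 other alternatives. It was not called with limma voom (2.67, adjusted p = 0.0618) or by limma on unfiltered log2(FPKM + 1) (2.06, adjusted p = 0.071).

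Osteopontin acts through Cd44 and through integrins. Of 9 receptor genes tested, 5 rose with high-fat diet and none fell, 8 fell with rapamycin and none rose, and 1 was lower in HFD+eRapa than in ND+veh. Medians were 1.07, -1.81 and -0.27. Itga4, an integrin chain of leukocytes, rose from 4.36 ± 3.05 CPM (SD, n = 8) to 27.8 ± 37.3 CPM (n = 7) and was at 4.37 ± 2.51 CPM (n = 9) in HFD+eRapa (2.67 and -2.67, edgeR adjusted p = 0.00515 and 0.00257). Itgav, the chain of the classical osteopontin receptors, rose by 0.64 (edgeR adjusted p = 0.0231) and fell by 0.91 on the log2 scale with rapamycin (edgeR adjusted p = 0.00172). Itga5, a fibronectin receptor chain, was below HFD+veh in HFD+eRapa (-0.57, edgeR adjusted p = 0.00556) and also below ND+veh (-0.86, edgeR adjusted p = 0.000217).

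Spp1, Cd24a and Epcam varied together across animals, and no relation of Sox9 with them passed the test. After group means were subtracted, Spp1 and Cd24a correlated with r = 0.931 and rho = 0.912 (permutation p = 1e-05 for each, the smallest possible, adjusted p = 0.000138 and 0.00023), and r was 0.92 without the 2 animals farthest from the median. Epcam correlated with Spp1 (r = 0.827, permutation p = 1e-05, adjusted p = 0.000138, rho = 0.791, permutation p = 2e-05, adjusted p = 0.000276, and r = 0.761 without 2 animals) and with Cd24a (r = 0.756, permutation p = 0.00024, adjusted p = 0.0011, rho = 0.694, permutation p = 0.00096, adjusted p = 0.00442, and r = 0.689 without 2 animals). Sox9 and Spp1 gave r = -0.084 (permutation p = 0.75, adjusted p = 0.849) and rho = -0.263 (permutation p = 0.254, adjusted p = 0.438). Sox9 and Cd24a gave r = -0.0498 (permutation p = 0.854, adjusted p = 0.879) and rho = -0.212 (permutation p = 0.353, adjusted p = 0.49). The tested genes closest to Spp1 were S100a11 (r = 0.95), Casp12 (r = 0.93) and Cd24a (r = 0.93), those closest to Cd24a were Casp12 (r = 0.95), Jpt1 (r = 0.93) and Sccpdh (r = 0.93), and those closest to Epcam were Fkbp1a (r = 0.88), Rhoc (r = 0.83) and Spp1 (r = 0.83).

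Markers of other cells moved with these genes. Of 12 Kupffer cell markers, 4 rose with high-fat diet and 10 fell with rapamycin. Cd68 was called in both (2.63 and -3.10, edgeR adjusted p = 0.0275 and 0.00734), whereas Marco (-3.41, edgeR adjusted p = 0.00601) and C1qa (-2.68, edgeR adjusted p = 0.0101) were called with rapamycin, their values with high-fat diet being 1.99 and 1.91 (edgeR adjusted p = 0.0917 and 0.0691). Of 10 markers of lipid-associated macrophages, 8 rose with high-fat diet and all 10 fell with rapamycin, among them Gpnmb (4.52 and -4.93, edgeR adjusted p = 0.00438 and 0.00136) and Atp6v0d2 (3.45 and -2.07, edgeR adjusted p = 0.000763 and 0.0084), and 2 were lower in HFD+eRapa than in ND+veh, including Cd9. Their sum ran from 81.7 to 184.4 CPM in ND+veh, from 38.3 to 1658 CPM in HFD+veh and from 21.7 to 125.7 CPM in HFD+eRapa. All genes of both macrophage lists passed the filter. The sum of the Kupffer markers correlated across animals with Spp1 (r = 0.729, permutation p = 0.00015, adjusted p = 0.000739, rho = 0.704, permutation p = 0.00042, adjusted p = 0.00223, and r = 0.676 without 2 animals) and with Cd24a (r = 0.752, permutation p = 8e-05, adjusted p = 0.000425, rho = 0.734, permutation p = 0.00024, adjusted p = 0.00144, and r = 0.691 without 2 animals). The relation was not particular to Kupffer cells. Spp1 correlated with the summed markers of lipid-associated macrophages (r = 0.808, rho = 0.765), neutrophils (r = 0.807, rho = 0.804), lymphocytes (r = 0.731, rho = 0.675), endothelial cells (r = 0.797, rho = 0.783) and stellate cells (r = 0.814, rho = 0.781), with adjusted permutation p between 0.000296 and 0.0102 and r of 0.655 to 0.768 without 2 animals. Cd24a did so with the same lists (r = 0.891, 0.873, 0.821, 0.804 and 0.834, rho = 0.828, 0.852, 0.729, 0.81 and 0.782, adjusted permutation p between 0.000138 and 0.00237, r of 0.732 to 0.843 without 2 animals). For Epcam these lists gave r of 0.579 to 0.622 and rho of 0.54 to 0.608 (adjusted permutation p between 0.015 and 0.0498, r of 0.462 to 0.673 without 2 animals). Epcam and the Kupffer sum missed the threshold (r = 0.496, adjusted permutation p = 0.0665, rho = 0.462, adjusted permutation p = 0.0948, and r = 0.379 without 2 animals). Within groups, r with these lists and the Kupffer list was highest in HFD+veh. It was 0.931 to 0.951 there for Spp1, 0.968 to 0.989 for Cd24a and 0.779 to 0.861 for Epcam. In HFD+eRapa it was 0.037 to 0.862, 0.0683 to 0.821 and 0.106 to 0.426, with lymphocytes lowest for Spp1 and Cd24a. In ND+veh it was 0.395 to 0.75, 0.715 to 0.825 and 0.429 to 0.617. The within-group values were not tested. With cholangiocyte markers, r was 0.544 for Spp1, 0.519 for Cd24a and 0.482 for Epcam (adjusted permutation p = 0.0568, 0.0757 and 0.0877), and rho was 0.535, 0.583 and 0.451 (adjusted permutation p = 0.0565, 0.0304 and 0.128). The sum of erythroid genes did not pass with Spp1, Cd24a or Epcam (r = 0.475, 0.53 and 0.146, adjusted permutation p = 0.124, 0.0809 and 0.768). With Sox9 the Kupffer sum gave r = -0.134 (permutation p = 0.532, adjusted p = 0.734) and rho = -0.244 (permutation p = 0.237, adjusted p = 0.419).

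**Figure D4:**
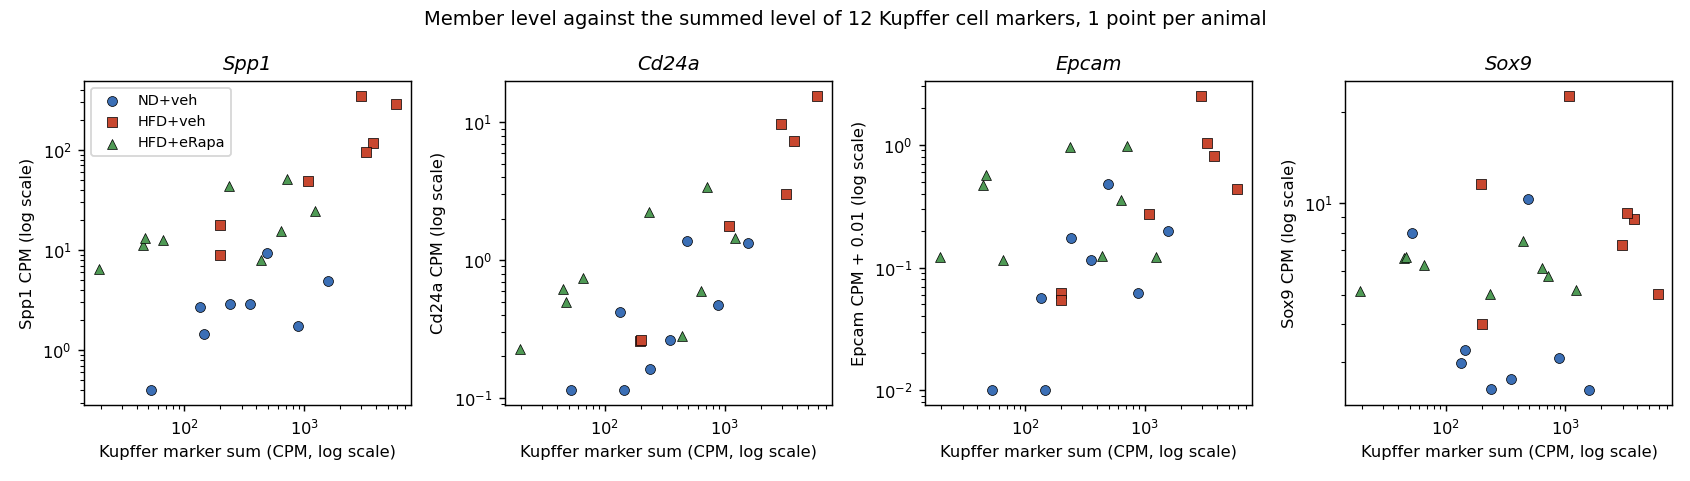
Spp1, Cd24a, Epcam and Sox9 against the summed CPM of 12 Kupffer cell markers, both axes in CPM on log scales (Epcam plus 0.01), with 1 point per animal coloured by group. Spp1 and Cd24a increase with the marker sum, at r = 0.729 and 0.752 after group means are removed. For Epcam the value is r = 0.496, which missed the threshold, and for Sox9 it is r = -0.134.

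With the Kupffer score as a covariate, the rise of Spp1 with high-fat diet remained called (log2 fold change 3.72, edgeR adjusted p = 0.000359), and with the score of lipid-associated macrophages likewise (3.11, edgeR adjusted p = 1.43e-05). The fall with rapamycin did not, at -0.51 (edgeR adjusted p = 0.724) and -0.19 (edgeR adjusted p = 0.848). For Cd24a the rise was 1.40 and 0.62 with these covariates (edgeR adjusted p = 0.184 and 0.39), and the rapamycin difference turned to 0.38 and 0.80 (edgeR adjusted p = 0.8 and 0.291). For Epcam the rise was 1.30 and 0.63 (edgeR adjusted p = 0.34 and 0.695), and with the cholangiocyte score it was 1.35 (edgeR adjusted p = 0.155). The scores themselves differed between the groups compared. Without ND+veh replicate 4 and HFD+veh replicates 4 and 6, Spp1 was called with high-fat diet (4.55) and not with rapamycin (-1.46, edgeR adjusted p = 0.0828).

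**Figure D5:**
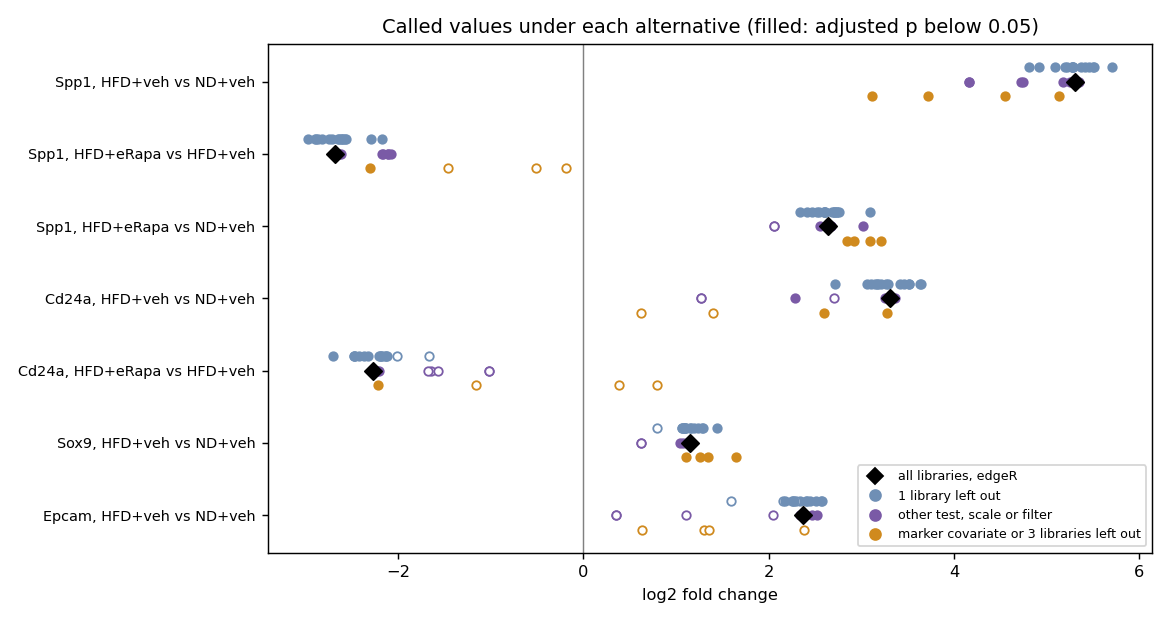
Log2 fold change of each value called for Spp1, Cd24a, Sox9 and Epcam under every alternative, with the reported value as a black diamond and filled symbols where the adjusted p was below 0.05. Spp1 with high-fat diet stays filled from 3.11 to 5.71, and the open symbols near 0 for Spp1 and Cd24a with rapamycin are the fits with a macrophage score.

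The other marker lists moved as follows. Only the cholangiocyte score was fitted as a covariate, and the part of the other lists in the values of the 8 genes was not tested beyond the correlations given above. Of 10 tested cholangiocyte markers, 4 rose and 1 fell with high-fat diet, 2 rose and 6 fell with rapamycin and none was called between HFD+eRapa and ND+veh, and their summed level ran from 169.0 to 247.4 CPM in ND+veh, from 199.3 to 304.2 CPM in HFD+veh and from 154.7 to 203.4 CPM in HFD+eRapa. Wfdc2, a secreted protease inhibitor, rose by 1.76 and fell by 2.72 on the log2 scale (edgeR adjusted p = 0.00189 and 2.15e-05). Pkhd1, the fibrocystin gene of duct cilia, rose by 0.63 in 7 of 7 HFD+veh animals above the highest ND+veh animal (edgeR adjusted p = 0.00284) and fell by 0.48 (edgeR adjusted p = 0.00874). Onecut1, a transcription factor shared by hepatocytes and ducts, went the other way (-1.69 and 2.38, edgeR adjusted p = 0.0331 and 0.00416). Of 4 neutrophil markers 3 rose and 2 fell with rapamycin, with S100a8 at 4.84 and -2.51 (edgeR adjusted p = 0.000809 and 0.0126). Of 2 lymphocyte markers tested of 10, Cd79b rose and fell (2.46 and -3.31, edgeR adjusted p = 0.0464 and 0.00835). Of 5 erythroid genes, 4 rose with high-fat diet, with Hba-a1 at 5.34 (edgeR adjusted p = 0.00271). Of 9 stellate cell markers none was called with high-fat diet, 8 fell with rapamycin and 7 were below ND+veh, with Pdgfrb at -2.11 and -1.69 (edgeR adjusted p = 0.000648 and 0.00392). Of 9 endothelial markers 1 rose with high-fat diet, and Stab1 fell with rapamycin by 1.65 on the log2 scale (edgeR adjusted p = 0.00658). Of 9 hepatocyte markers, Apoa1 fell with high-fat diet (-0.68, edgeR adjusted p = 0.0411), and Apoa1 and Asgr1 rose with rapamycin (0.71 and 0.48, edgeR adjusted p = 0.0236 and 0.0224).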

How the data were processed

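RNA from perfused hepatocytes of 24 mice was sequenced as polyadenylated mRNA. The authors aligned reads to mm10 (Gencode M23) with STAR, filtered them with SAMtools 1.1.0 and deposited raw counts per gene from HTSeq 0.11.2 and FPKM values from Cufflinks, 1 column per library with no pooling. Whether counting used strand is not given in the sources used here.

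From the counts, edgeR 4.0.16 (R 4.3.3) fitted all 24 libraries at once (filterByExpr, TMM, robust quasi-likelihood test), with Benjamini-Hochberg adjustment over 13847 genes and calls at 0.05. Standard errors were derived from each fold change and its F statistic. The fit was tested on simulated data. Keratin ratios and shares were taken from FPKM per animal. The ratio tests numbered 9, because the planned Krt7 to Krt19 ratio could not be computed. Correlations used log2 CPM with a prior count of 2 (marker sums as log2 of CPM plus 1) after subtraction of group means, with 100000 permutations within groups. Closest genes were ranked by the same r.

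Labels place all libraries in the same batch. Each label marks a separate animal, and no pair of libraries of a group agreed within sampling noise (chi-square per degree of freedom at least 12.3). Depth of 17.7 to 25.9 M counts leaves genes with few counts, Krt7, Krt19 and Epcam, imprecise. Alternatives were DESeq2 1.42.0, limma 3.58.1, other scalings, filters and pseudocounts, marker covariates, a replicate block and each library left out. A macrophage score of a second kind, the removal of 3 libraries that stood apart and a fit for Krt19 were added after seeing the data. Genes named are the 8, up to 3 called genes with the lowest adjusted p in each list, and the 3 closest genes of each. The members and lists were chosen with earlier results of these data known. Coordinates are from Gencode M21 of GRCm38, and promoter sequences are from RefSeq (GRCm38.p6), in which Krt19, Sox9 and Cd24a were not matched.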

Additional observations from a re-analysis of the deposited data

Results flagged for a closer look

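Krt19 in HFD+veh replicate 4 was 4.07 CPM, far above the other 6 animals of its group, which lay between 0.0881 and 0.417 CPM. The share of Krt7 and Krt19 among the 4 keratins was highest in the same animal, at 0.932% against 0.0276% to 0.214% in the others. The same animal also held the highest Epcam (2.49 CPM) and Spp1 (348 CPM) of all 24. The gap of that animal to the next was large relative to the range of its group in both values. Chance gives such a gap in about 1 in 20 groups of normally distributed values, which low counts and shares need not be. In all, 33 groups were examined, and the share contains Krt19, so the 2 values are not separate.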

How the results depend on the processing

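The labels' replicate numbers were not used to pair the animals in the reported fit. Same-numbered deviations correlated above 0.1 in 5 of 7, 2 of 7 and 2 of 8 pairs (means 0.316, -0.245 and -0.203). On average they were positive only for HFD+veh against ND+veh. With the replicate number as a block, 1 of the genes was called with rapamycin and 2 against ND+veh, 2532 genes were called with rapamycin, and the keratin ratios were 0.2425, -0.1995, 0.239 and -0.1971 (exact permutation test, adjusted p = 0.106) with shares 0.1798 and 0.08223.

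Of 4 members called with high-fat diet, limma voom, a fit of only the 2 groups (which did not test Epcam) and the Kupffer and lipid-associated macrophage covariates each left 2. At least 10 counts in every library and unfiltered log2(FPKM + 1) each left 1. The minimum of 10 counts removed Spp1, Cd24a and Epcam, so that fit did not test them in any comparison. With rapamycin, voom and the 3 FPKM fits left 1, while both macrophage covariates and the exclusion of ND+veh replicate 4 with HFD+veh replicates 4 and 6 left 0. At least 10 counts also left 0, because neither gene called with rapamycin was tested there. The cholangiocyte covariate gave 4, and leaving out 1 library gave 1 (without HFD+veh replicate 4 or 6) to 3. Between HFD+eRapa and ND+veh, voom, at least 10 counts and unfiltered FPKM gave 0, and the 3 covariates and the exclusion of 3 libraries gave 3.

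Over all genes with high-fat diet, 2333 were called in the fit of 2 groups, 2207 with log2(FPKM + 0.1), 1551 with unfiltered FPKM, 1297 and 1390 with the Kupffer and lipid-associated covariates, 1608 without 3 libraries and 2106 (without HFD+veh replicate 6) to 4479 with 1 left out. With rapamycin the counts were 2809 with at least 10 counts, 2808 with unfiltered FPKM, 864 and 907 with the macrophage covariates and 1842 without 3 libraries. Between HFD+eRapa and ND+veh they were 1101 with unfiltered FPKM and 2872 with the lipid-associated covariate. The share of rapamycin calls that were higher moved from 34% to 24.1% with log2(FPKM + 1), and that of high-fat diet calls from 61.9% to 49.4% with voom. With log2(FPKM + 0.1) the median of all genes was -0.1388 with rapamycin.

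Direction turned for Krt18 with high-fat diet (-0.015 with no filter, -0.0168, -0.0167 and -0.0168 in the FPKM fits, -0.0022 with the block, -0.2154 with the cholangiocyte covariate, -0.0857 to 0.1003 with 1 library left out) and for Krt8 (-0.0678 with the cholangiocyte covariate). With rapamycin it turned for Krt8 (-0.0095 in each FPKM fit, -0.029 to 0.1373 with 1 left out), Krt7 (-0.055 with unfiltered FPKM), Epcam (0.7461, 0.9669 and 1.2586 with the Kupffer, cholangiocyte and lipid-associated covariates), Cd24a (0.3808 and 0.798 with the macrophage covariates) and Krt19 (0.2905 without HFD+veh replicate 4). As medians the keratin ratios were 0.2297, -0.2083, 0.2312 and -0.211 and the shares 0.03103 and 0.03008, all past the threshold only as means, and from CPM the share against ND+veh was 0.04384. With 1 library left out the share differences ran from 0.05766 to 0.2083, from -0.1329 to 0.01774 and from 0.05672 to 0.08702. Causes were not tested, apart from the removal of Spp1, Cd24a and Epcam by the count minimum. Low counts limit Krt7, Krt19 and Epcam.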
